A study of Mus musculus with 4 samples.

Results

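Proteasome genes were taken as the protein-coding genes of the deposited table whose symbol reads Psma to Psmg followed by a digit. The rule found 50 genes among 54532 in the table, 22046 of which were protein coding. They were 31 genes of the constitutive particle, 3 immune catalytic subunits, 5 activator genes, 3 chaperones of the base of the cap, 4 chaperones of the core particle, the regulator Psmf1, 2 tissue-restricted subunits and Psmc3ip. Psmc3ip encodes a meiotic recombination factor and was matched by its letters only. Counts were present for 49 of the 50 genes, and Psmb11, the thymic form of the β5 subunit (chr14:54621433-54629556, plus strand), had 0 counts in all 4 libraries. A count of 0 allowed a level of up to 0.108 to 0.184 CPM, the normalized read count scaled to a common library size (3 counts per library).

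The proteasome degrades proteins that carry ubiquitin chains. Its core particle, the 20S, is a barrel of alpha and beta rings with the proteolytic sites on the beta subunits Psmb5, Psmb6 and Psmb7, and its cap, the 19S, recognises, unfolds and threads substrates with a ring of ATPases. In cells of the immune system, Psmb8, Psmb9 and Psmb10 can take the places of Psmb5, Psmb6 and Psmb7 in newly built cores, and the PA28 activator, made of the Psme1 and Psme2 products, can replace the cap. These immune subunits are known as interferon-inducible and shape the peptides loaded on MHC class I. Fbxw7, the gene targeted here, encodes an F-box protein that brings substrates to an SCF ligase, which attaches the ubiquitin.

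RNA was sequenced from mouse bone marrow-derived macrophages, cultured for 6 days from femur and tibia marrow of mice of the C57BL/6 strain, 6 to 8 weeks old. The medium held 10% serum and 20% supernatant of L929 fibroblasts. Mice of both groups carried floxed Fbxw7 alleles (FBXW7f/f). The libraries titled WT carried no Cre by their design, and those titled KO carried LysM-cre as well, a Cre expressed from the lysozyme gene in myeloid cells. Cells of each kind were untreated or stimulated for 3 h with lipopolysaccharide (LPS), a bacterial ligand of TLR4, which makes 4 groups with 1 library each. The sources used here do not give the dose of LPS. Nothing says that the libraries came from separate animals, so p-values measure only the spread between these 4 libraries.

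Total counts ran from 17610372 to 23835940 per library. All 7 macrophage markers were at a mean of at least 1 CPM (scaled by edgeR's TMM method), with a summed level of 6201 and 6837 CPM in the untreated libraries titled WT and KO and 10649 and 8652 CPM in the LPS libraries. Of the neutrophil, T cell, B cell, NK, dendritic, fibroblast and erythroid markers, 1 of 6, 2 of 5, 1 of 4, 0 of 2, 1 of 4, 0 of 4 and 0 of 3 reached that level, and none of these lists summed to more than 62.0 CPM in a library. T cell markers, led by Cd4, had summed levels of 29.6, 36.2, 55.4 and 62.0 CPM and dendritic markers, led by Xcr1, of 1.45, 1.88, 13.1 and 9.24 CPM, untreated before LPS libraries and WT before KO. The macrophage, T cell and dendritic lists were thus higher in both LPS libraries, and their part in the results was not tested. Of all markers, 1 erythroid gene was at 0 in the 4 libraries. In bulk RNA, fewer cells of a type and less RNA per cell cannot be told apart. The genotype tags went against the titles, with the floxed tag on both untreated libraries and the Cre tag on both LPS libraries. Fbxw7 was at 17.9, 17.2, 9.90 and 11.7 CPM in the 4 libraries, given in the order WT untreated, KO untreated, WT LPS and KO LPS here and for every set of 4 values below. A count over the whole gene does not resolve a floxed exon, so this level checks nothing about the deletion. Lyz1, a lysozyme gene beside the one that carries Cre, was at 2.86, 32.9, 33.1 and 2.63 CPM. Lyz2, which carries Cre, was at 15253, 8711, 9917 and 18238 CPM. Both genes thus put KO untreated beside WT LPS, which goes against the titles, and every genotype direction below is one between titled libraries.

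The question put first was which proteasome genes responded to LPS over all 4 libraries, the only contrast with more than 1 library a side. After LPS, 16 of the 49 tested genes rose and 0 fell. The immune catalytic subunits and the PA28 genes Psme1 and Psme2 were among them, and the constitutive core genes had smaller effects over the 4 libraries. Within the KO titles, however, the LPS level was 1.54, 1.59 and 1.48 times the untreated level for Psmb8, Psmb9 and Psme1. The constitutive core genes had a median of 1.35 times in those titles and reached 2.02 times. Over all 13989 genes tested, 16.7% were higher and 15.3% lower after LPS (edgeR's quasi-likelihood test, Benjamini-Hochberg adjusted p under 0.05), against 32.7% higher among the proteasome genes. The median log2 effect was 0.45 over the proteasome genes and -0.04 over all genes tested. Both LPS libraries lay above both untreated libraries for 37 proteasome genes, where 33% of all tested genes did so, and below them for 3, where 39.3% did so. Those 3 were Psma1, Psmd5 and Psmg3, named after their values were seen, and for the remaining 10 genes the treatments overlapped or had no counts. Psmd5 alone of the proteasome genes had a negative effect at an unadjusted edgeR p under 0.05, and DESeq2 called 0 lower as well.

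**Figure D1:**
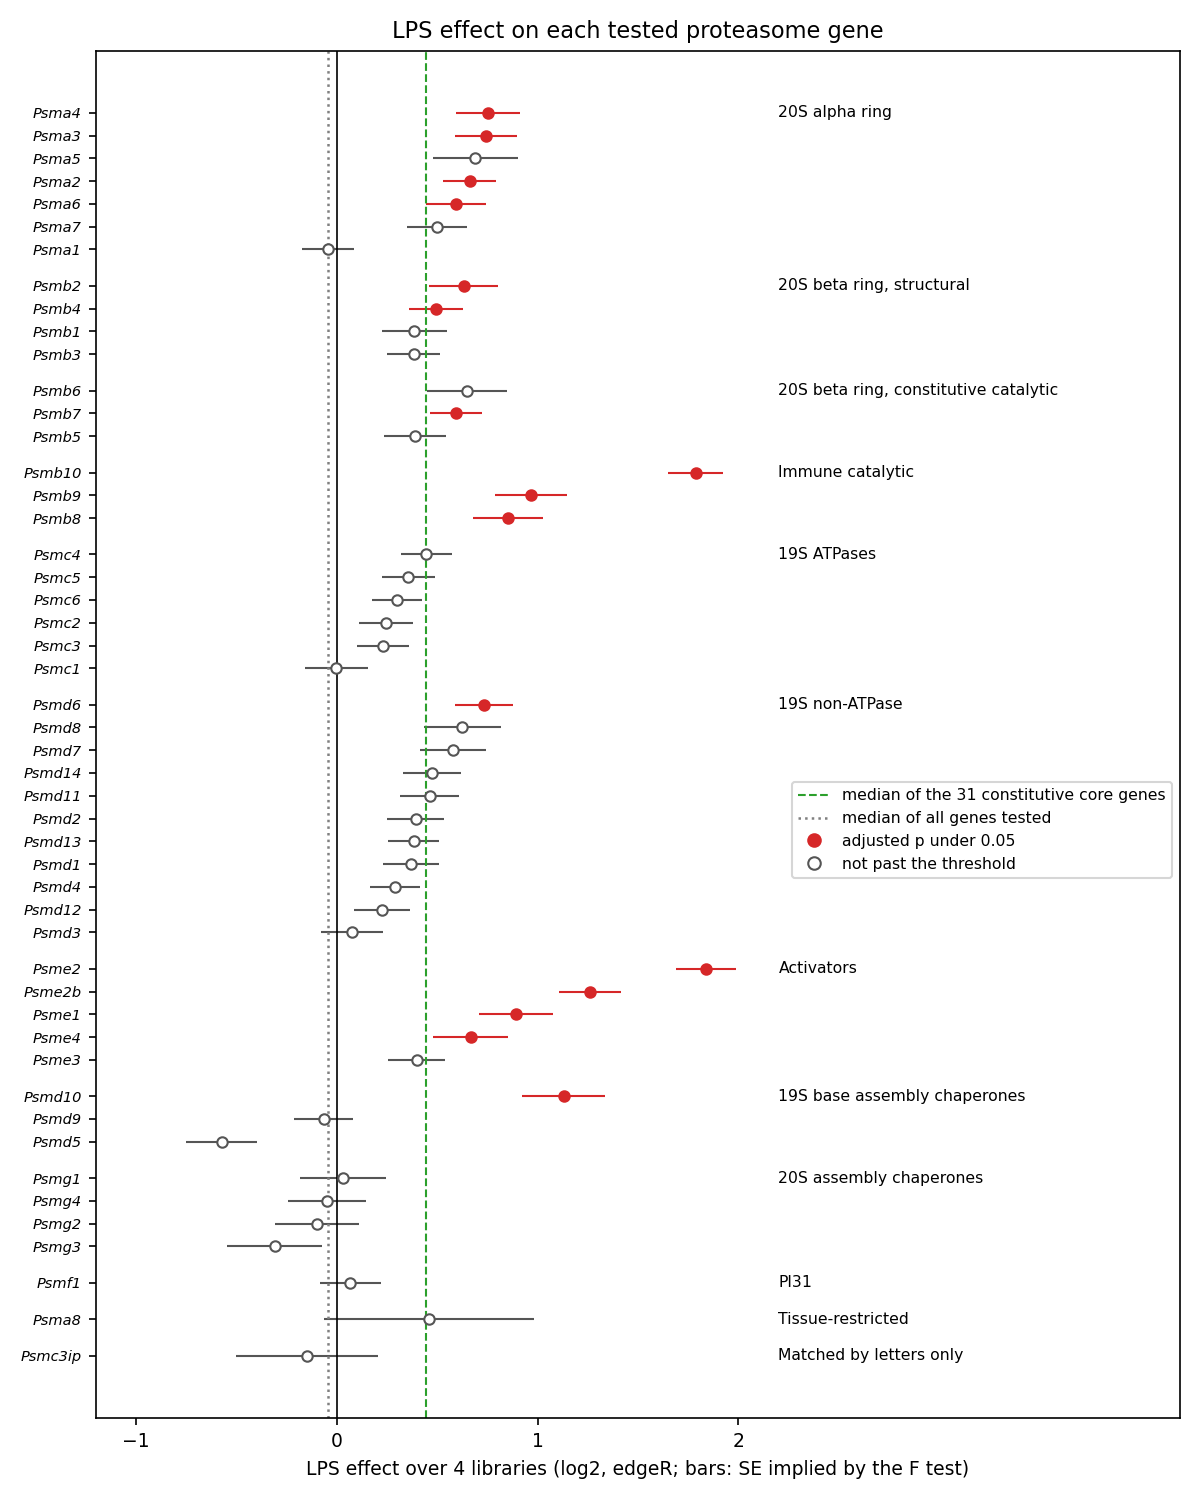
LPS effect (log2, 2 LPS against 2 untreated libraries) of each of the 49 tested proteasome genes, by group, with bars for the standard error implied by edgeR's F test and filled points for an adjusted p under 0.05. Psme2 (1.84), Psmb10 (1.79), Psme2b (1.26) and Psmd10 (1.13) lie farthest to the right, and most constitutive genes lie near the core median of 0.45, to the right of the median of all genes (-0.04).

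These effects depended on the scaling, and most of the calls also on the model and on single libraries. Scaling by library totals in place of TMM moved the median of all genes by -0.57 and the median of the 31 constitutive core genes from 0.45 to -0.13, and it moved the share of higher genes among all calls from 52.2% to 19%. The direction of most constitutive genes therefore holds only relative to the bulk of genes. Psmb10, Psme2 and Psme2b were called under every alternative tried, library totals and each left-out library included. In the additive model, which compares libraries within titles, those 3 alone of the 16 stayed called, with the other 13 at an edgeR adjusted p of 0.0524 to 0.187. That model leaves 1 residual degree of freedom in place of 2, and in it the higher calls over all genes went from 2339 to 1308. Without the untreated library titled WT the same 3 stayed. Without the untreated library titled KO 7 stayed, without the LPS library titled WT 6, and without the LPS library titled KO 5.

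Psmb10, the immune counterpart of Psmb7 (β2i, also MECL-1; chr8:105935735-105938444, minus strand), was at 72.6, 75.7, 242 and 257 CPM. Both LPS libraries stood well above both untreated libraries, and the titles lay close together within each treatment. Its log2 effect was 1.79 ± 0.14 (SE; 2 against 2 libraries; edgeR adjusted p = 0.00189), the largest of the catalytic subunits. Within titles, the LPS level was 3.34 times the untreated level for WT (3.15 to 3.54, a 95% binomial interval that covers counting error only) and 3.40 times for KO (3.22 to 3.58). Because Psmb10 and Psme2 had the largest responses of the 49, the 100 bases directly before the annotated exons of each are shown on the gene's strand, from RefSeq's GRCm38.p6 promoter windows.
Psmb10, chr8:105938445-105938544, minus strand: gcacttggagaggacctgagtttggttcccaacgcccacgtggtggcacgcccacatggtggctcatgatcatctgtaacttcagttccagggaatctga
Psme2, chr14:55591114-55591213, minus strand: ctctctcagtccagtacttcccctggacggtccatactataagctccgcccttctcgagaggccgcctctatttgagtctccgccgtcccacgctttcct
None of the 5 motifs searched for here had its letters in the windows of these genes.

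Psmb8, the immune counterpart of Psmb5 (β5i, LMP7; chr17:34197721-34201454, plus strand), was at 163, 209, 334 and 321 CPM. Psmb9, the counterpart of Psmb6 (β1i, LMP2; chr17:34181988-34187764, minus strand), was at 76.2, 101, 176 and 161 CPM. In both genes the untreated library titled KO was above the one titled WT, and the order of the titles was turned after LPS without the treatments overlapping. The log2 effects were 0.85 ± 0.17 for Psmb8 (edgeR adjusted p = 0.0218) and 0.97 ± 0.18 for Psmb9 (edgeR adjusted p = 0.0174). Within titles, Psmb8 was 2.04 times (1.96 to 2.13) its untreated level after LPS for WT and 1.54 times (1.48 to 1.60) for KO. Psmb9 was 2.31 times (2.18 to 2.46) for WT and 1.59 times (1.51 to 1.68) for KO. Both calls were lost in the additive model with log2 effects of 0.86 and 0.98 (edgeR adjusted p = 0.0834 and 0.0593). With library totals both calls were lost as well, at log2 effects of 0.28 and 0.40 (edgeR adjusted p = 0.201 and 0.0974). They were kept without the untreated library titled KO and lost without the untreated library titled WT (edgeR adjusted p = 0.124 and 0.0730), the LPS library titled WT (0.0680 and 0.0585) or the LPS library titled KO (0.0697 and 0.0512).

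Psmb9 lies head to head with Tap1, the gene for a subunit of the transporter that carries peptides into the endoplasmic reticulum, and their RefSeq starts are 226 bases apart on opposite strands (34187330 for Psmb9 and 34187556 for Tap1, chromosome 17). Tap1 was at 106, 166, 596 and 640 CPM, and its log2 effect was 2.22 ± 0.26 (edgeR adjusted p = 0.00496). Both genes were thus higher in both LPS libraries, with different sizes of effect. Their annotated ends overlap and the strand setting of the counting is not given, so reads in the overlap cannot be assigned to either.

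The constitutive catalytic subunits had smaller effects than their immune counterparts, and 1 of 3 passed the test. Psmb7 (β2; chr2:38588036-38644087, minus strand) was at 63.5, 62.3, 89.3 and 95.9 CPM, with both LPS libraries above both untreated ones and a log2 effect of 0.59 ± 0.13 (edgeR adjusted p = 0.0262). This call was lost when any 1 of the 4 libraries was left out (edgeR adjusted p = 0.0574 to 0.158). Psmb7 overlaps Nek6, which was at 40.5, 36.7, 83.4 and 77.6 CPM, and the part of Nek6 reads in the Psmb7 count was not tested. Psmb5 (β5; chr14:54614119-54618022, minus strand) was at 79.2, 82.7, 93.2 and 114 CPM, a log2 effect of 0.39 ± 0.16 that did not pass (edgeR adjusted p = 0.114). It turned to -0.18 when scaled by library totals. Psmb6 (β1; chr11:70525367-70527858, plus strand) was at 126, 166, 246 and 200 CPM, a log2 effect of 0.65 ± 0.20 with an adjusted p of 0.0620 by edgeR and of 0.0201 by DESeq2. As in Psmb8 and Psmb9, the library titled KO was the higher untreated and the lower after LPS.

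**Figure D2:**
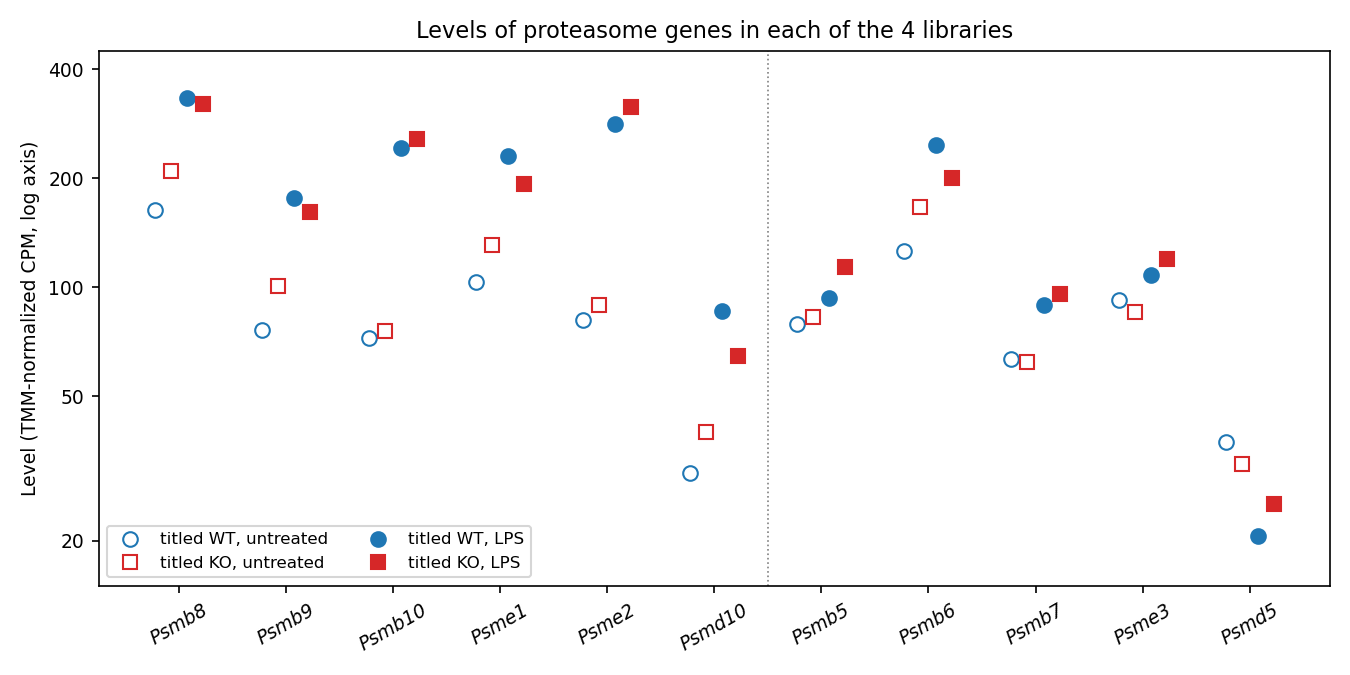
Level (TMM-normalized CPM, log axis) of 11 proteasome genes in each of the 4 libraries, open symbols untreated and filled symbols LPS, circles titled WT and squares titled KO. In 10 of the 11 genes both filled symbols lie above both open ones, and in Psmd5, at the right, they lie below.

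Within a library, an immune subunit can be set against the constitutive subunit it replaces without any scaling between libraries. Per kilobase of the deposited gene length, the ratio of Psmb10 to Psmb7 was 2.29, 2.44, 5.44 and 5.38. LPS libraries were thus 2.37 times (WT) and 2.21 times (KO) their untreated libraries. For Psmb8 over Psmb5 the ratio was 0.678 (0.640 to 0.719), 0.830 (0.791 to 0.872), 1.18 (1.11 to 1.24) and 0.930 (0.882 to 0.981). Both LPS values lay above both untreated ones, by 1.74 times within the WT titles and 1.12 times within the KO titles. The ratio of Psmb9 to Psmb6 was the lowest, at 0.310, 0.311, 0.366 and 0.413. Its LPS values were 1.18 times (WT) and 1.33 times (KO) the untreated ones. Psmb9 overlaps Tap1 and Psmb7 overlaps Nek6, both higher in both LPS libraries, and the part of their reads in these ratios was not tested. All 3 ratios were higher in both LPS libraries than in both untreated ones, and with 1 library a group they carry no test. Their absolute size depended on the gene length used: per kilobase of the principal transcript, Psmb10 over Psmb7 began at 1.01 and Psmb8 over Psmb5 at 1.14 in the untreated library titled WT.

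**Figure D3:**
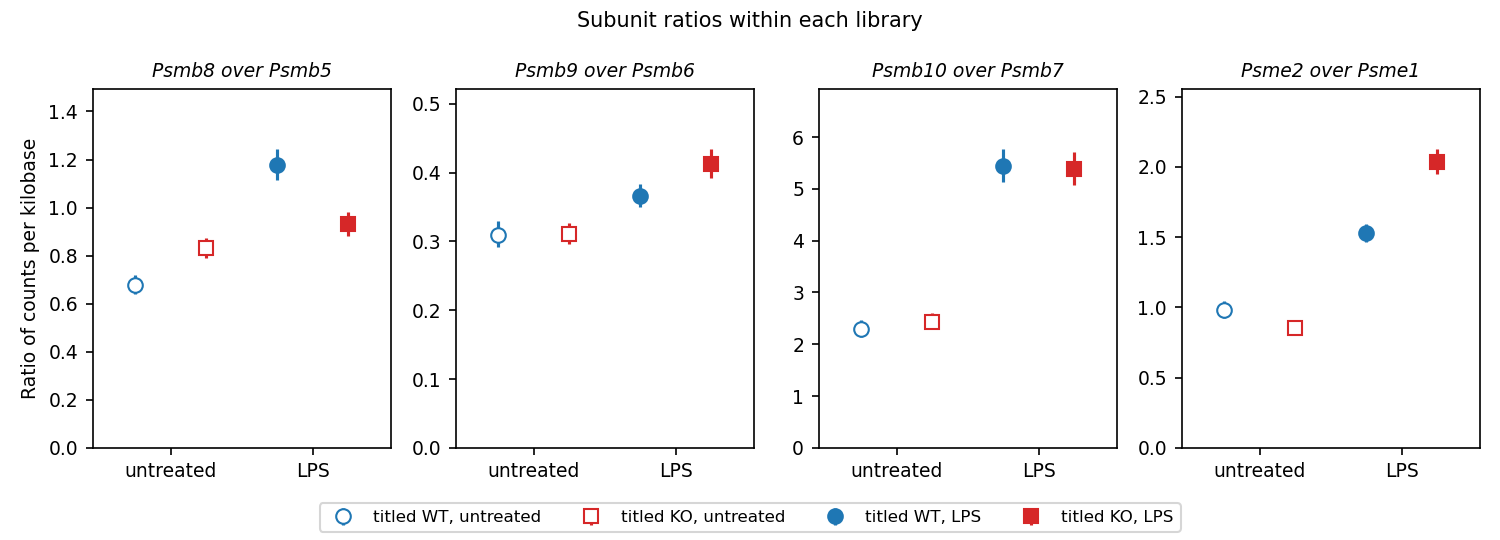
Ratio of counts per kilobase of gene length within each library for the 3 immune over constitutive pairs and for Psme2 over Psme1, with 95% binomial intervals of the counts that cover counting error only. In every panel both LPS libraries lie above both untreated libraries, with the widest gap for Psmb10 over Psmb7 (2.29 and 2.44 untreated, 5.44 and 5.38 after LPS).

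Activators open the gate of the core. Of the 5 genes, 4 rose (80%, where 16.7% of all genes tested did so) and the median log2 effect was 0.89. Among the 4, Psme2 and its close copy Psme2b may share reads. Psme2 (PA28β; chr14:55587441-55591113, minus strand) was at 81.2, 89.5, 282 and 314 CPM, with a log2 effect of 1.84 ± 0.15 (edgeR adjusted p = 0.00219), the largest among the proteasome genes. Its partner Psme1 (PA28α; chr14:55578123-55581529, plus strand) was at 103, 131, 231 and 193 CPM, a log2 effect of 0.89 ± 0.18 (edgeR adjusted p = 0.0220). Both were higher in both LPS libraries, and in Psme1 the titles changed order between treatments. Scaled by library totals, Psme1 had a log2 effect of 0.32 and was not called (edgeR adjusted p = 0.165). The Psme1 call was lost in the additive model (edgeR adjusted p = 0.0802), and without the untreated library titled WT (edgeR adjusted p = 0.101) or the LPS library titled WT (0.0708). The 2 products form 1 ring, and the ratio of Psme2 to Psme1 per kilobase was 0.985, 0.856, 1.53 and 2.04. It was 1.55 times its untreated value after LPS in the WT titles and 2.38 times in the KO titles.

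Psme2b (chr11:48945354-48946190, minus strand), a close copy of Psme2, was at 76.2, 66.8, 159 and 176 CPM, a log2 effect of 1.26 ± 0.15 (edgeR adjusted p = 0.00574). Its transcript was 99.4% identical to that of Psme2 over 794 aligned bases, so the split of reads between these genes is uncertain. Its counts were 0.939, 0.746, 0.563 and 0.560 of those of Psme2. Psme4 (PA200, an activator of nuclear proteasomes; chr11:30771726-30880361, plus strand) was at 73.7, 62.6, 92.9 and 118 CPM, a log2 effect of 0.67 ± 0.19 at the edge of the threshold (edgeR adjusted p = 0.0489, and 0.0505 to 0.210 with 1 library left out). Psme3 (PA28γ, which forms a nuclear ring of its own; chr11:101316213-101323537, plus strand) was at 92.1, 85.5, 108 and 120 CPM, a log2 effect of 0.40 ± 0.14 that did not pass (edgeR adjusted p = 0.0875) and turned to -0.18 when scaled by library totals.

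Among the constitutive core genes, 8 of 31 rose (25.8%, where 16.7% of all genes tested did so), 0 fell and 29 had a log2 effect above 0, with a median of 0.45. That median was that of all 49 genes as well. The alpha ring, which gates the core, had 4 of 7 called and a median of 0.66. The structural beta subunits had 2 of 4 called and a median of 0.44. The cap had 1 of 17 called (5.88%, where 16.7% of all genes were higher) and a median of 0.37. These were 0 of 6 ATPases (range -0.00 to 0.45) and 1 of 11 other subunits (range 0.08 to 0.73). Both LPS libraries still lay above both untreated ones for 15 of the 17 cap genes, where 33% of all tested genes did so. Core and cap were not tested against each other. Psmd7, a non-ATPase subunit, and Psmc4, an ATPase, narrowly missed the threshold and were not called (edgeR adjusted p = 0.0501 and 0.0502).

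The called alpha subunits had log2 effects between 0.59 and 0.75. Psma2 was at 107, 104, 160 and 167 CPM, with a log2 effect of 0.66 ± 0.13 (edgeR adjusted p = 0.0206). Psma3 was at 97.5, 96.9, 144 and 174 CPM and Psma4 at 89.5, 85.1, 130 and 157 CPM, with log2 effects of 0.74 ± 0.16 and 0.75 ± 0.16 (edgeR adjusted p = 0.0237 and 0.0240). In these 3 genes the untreated libraries lay close together and both LPS libraries stood above them, the one titled KO higher. Psma6 was at 170, 173, 270 and 233 CPM, with a log2 effect of 0.59 ± 0.15 (edgeR adjusted p = 0.0378), and here the LPS library titled WT was the higher. Psma1 was the exception of the ring, at 155, 158, 146 and 150 CPM and a log2 effect of -0.04. Psma5 was at 84.9, 67.8, 104 and 137 CPM, a log2 effect of 0.69 ± 0.21 that did not pass (edgeR adjusted p = 0.0608). With 1 library left out, Psma3 and Psma4 stayed called only without the LPS library titled WT (edgeR adjusted p otherwise 0.0771 to 0.104 and 0.0781 to 0.112), and the calls of Psma2 and Psma6 were lost whichever library was left out (edgeR adjusted p = 0.0513 to 0.127 and 0.0686 to 0.174).

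In the beta ring, Psmb2 was at 89.9, 75.7, 115 and 135 CPM and Psmb4 at 135, 138, 183 and 193 CPM. Their log2 effects were 0.63 ± 0.17 and 0.49 ± 0.13 (edgeR adjusted p = 0.0453 and 0.0444), and both LPS libraries lay above both untreated ones in each. Both calls were lost whichever library was left out (edgeR adjusted p = 0.0644 to 0.223 and 0.0859 to 0.221), and Psmb4 turned to -0.081 when scaled by library totals. In the cap, Psmd6 (Rpn7) was at 61.8, 62.8, 93.6 and 108 CPM, a log2 effect of 0.73 ± 0.14 (edgeR adjusted p = 0.0195) that stayed called only without the LPS library titled WT (0.0621 to 0.0920 without another).

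In the deposited FPKM, which divide by gene length, levels of the 31 constitutive genes were spread over 16.7 to 22.2 fold within a library, although their products enter the same particle. Psmd11 was the lowest in every library (8.08, 7.08, 9.92 and 11.4 FPKM) and Psma6 the highest (135, 135, 220 and 194 FPKM). Per kilobase of principal transcript the spread was 8.80 to 13.9 fold, with Psmd11 again lowest and Psmb6 in place of Psma6 as the highest in 3 of the 4 libraries.

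Under TMM scaling 29 of the 31 constitutive genes had effects of the same sign, where with library totals 11 were above 0 and 20 below. Because of the shared sign under TMM, the windows around their starts were searched on both strands for 5 sets of letters. RefSeq windows (250 bases before to 50 after the start, GRCm38.p6) were found for 42 of the 50 genes. The core of ETS factor sites, CCGGAA, was in a window of 21 of these 42 genes (50%) and of 14 of 25 constitutive genes (56%). It was in a window of 16.7% of all 27018 genes with windows and of 20.9% of 17486 protein-coding ones. A gene counted once if any of its windows held the letters. The antioxidant response core TGACNNNGC was in 6 of the 42 genes (14.3%, against 14.0% of all genes). The interferon-stimulated response core, GAAA and then GAAA again after 2 further bases, was in 5 (11.9%, against 3.99%). The gamma-activated sequence TTCNNNGAA was in 3 (7.14%, against 9.55%) and the NF-kB consensus in 1 (2.38%, against 5.14%). Each motif was counted on its own, so 1 window can hold several. A match is a description of letters, not a bound site, and no share was tested. Windows of 30 bases, each with its match in capitals on the gene's strand, show ETS cores before 2 called genes of the alpha ring and cap (Psma6, Psmd6), an ATPase that was not called (Psmc6) and Psma5.
Psma6, chr12:55398760-55398789, plus strand: gtcccgtccccaCCGGAAacaccgccagtc
Psmd6, chr14:14120973-14121002, minus strand: ccagagacgcgaCCGGAAgtcagactggcg
Psmc6, chr14:45329712-45329741, plus strand: gaggcgggccagCCGGAAggggcggagcca
Psma5, chr3:108256760-108256789, plus strand: cagcaaacctagTTCCGGctgccaccgagc
In Psma5 the capitals are the same core read on the other strand. Among the catalytic and PA28 genes, Psmb5 and Psmb6 held an antioxidant response core, Psmb8 a gamma-activated sequence and Psme1 an interferon-stimulated response core, read on the other strand, 9 to 18 bases past its start.
Psmb5, chr14:54618023-54618052, minus strand: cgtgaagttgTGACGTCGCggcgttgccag
Psmb6, chr11:70525338-70525367, plus strand: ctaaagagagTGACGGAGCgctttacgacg
Psmb8, chr17:34198088-34198117, plus strand: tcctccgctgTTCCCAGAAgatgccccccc
Psme1, chr14:55578493-55578522, plus strand: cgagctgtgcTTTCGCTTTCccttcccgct
The 5 genes with an interferon-stimulated response core were Psmb3, Psmd4, Psmd9, Psme1 and Psmg4, of which Psme1 alone was called.

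Assembly chaperones did not move as a group. Psmd10 (gankyrin, a chaperone of the cap's base; chrX:140948429-140956728, minus strand) was at 30.7, 39.8, 85.8 and 64.7 CPM, a log2 effect of 1.13 ± 0.21 (edgeR adjusted p = 0.0167). That call was lost in the additive model (edgeR adjusted p = 0.0524), and without the untreated (edgeR adjusted p = 0.0506) or the LPS library titled WT (0.0534). Psmd5, another base chaperone, named after its values were seen, was at 37.4, 32.5, 20.6 and 25.3 CPM, with both LPS libraries below both untreated ones and a log2 effect of -0.57 ± 0.18 that did not pass (edgeR adjusted p = 0.0631). Psmd9, the third of them, had a log2 effect of -0.07. The 4 chaperones of the core particle, Psmg1 to Psmg4, ranged from -0.31 to 0.03 with 0 called. PI31, the Psmf1 product and a modulator of the core, had 0.07. Psma8, the testis form of an alpha subunit, had 15 to 29 counts per library and could not be resolved (log2 effect 0.46 ± 0.52), and Psmc3ip had -0.15.

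Other genes of the pathway came from lists that were chosen with earlier results of these data known, and their counts stand beside the 16.7% of all genes that were higher. Of 16 accessory and shuttle genes tested, 4 rose and 0 fell (median log2 effect 0.34), among them Zfand5, a zinc-finger activator of the 26S particle (1.47), Txnl1, a cap-bound thioredoxin (0.98), and Sem1, the smallest cap subunit (0.65). Pomp, the maturation factor of the core, was at 113, 118, 148 and 168 CPM and did not pass (log2 effect 0.48, edgeR adjusted p = 0.0551). Of 7 regulators, 5 rose and 0 fell (median 1.57). Irf1, an interferon-regulated transcription factor of Psmb8, Psmb9 and Psmb10, was at 63.1, 71.7, 853 and 891 CPM (log2 effect 3.73 ± 0.18, edgeR adjusted p = 0.00105), the largest effect on these lists. Nlrc5, an activator of MHC class I genes, rose by 2.86 on the log2 scale and Rela, an NF-kB subunit, by 1.95. Nfe2l1, the factor known to raise constitutive proteasome genes when degradation is blocked, was at 206, 222, 280 and 231 CPM and did not pass (log2 effect 0.29, edgeR adjusted p = 0.216). Of 9 peptide trimming and transport genes, 5 rose and 0 fell (median 0.71), among them the peptidase Lap3 (2.36), the MHC loading factor Tapbp (1.73) and Tap2 (1.16).

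Comparisons of 2 libraries had no replicate check, so no p-value is given for them. Calls were made at 2-fold or more where the 95% counting interval of the ratio excluded 1, among 12326 genes with a mean of at least 1 CPM. In the WT titles, 7 proteasome genes were higher after LPS (Psmb8, Psmb9, Psmb10, Psmd10, Psme1, Psme2 and Psme2b) and 0 lower, where 15.4% of all genes were higher and 15% lower. These 7 of 49 are close to that background. In the KO titles, 4 were higher (Psma5, Psmb10, Psme2 and Psme2b) and 0 lower, where 14.6% of all genes were higher and 17.8% lower. Psmd10 was 2.79 times (2.55 to 3.06) its untreated level in the WT titles and 1.63 times (1.49 to 1.77) in the KO titles. Psma5 went the other way, with 1.22 times (1.14 to 1.30) and 2.02 times (1.90 to 2.15). Psme2 was alike in both, at 3.47 times (3.29 to 3.66) and 3.51 times (3.34 to 3.68).

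The authors' deposited table listed 49 of the genes in each of its 4 comparisons. At an adjusted p under 0.05 in the authors' deposited table, 5 proteasome genes were higher in the WT titles after LPS (background 9.94% higher, 8.3% lower) and 3 in the KO titles (background 9.05% higher, 10.2% lower), with 0 lower in either. Psmb10 had a log2 fold of 1.77 in both comparisons of the authors' deposited table (adjusted p = 0.000406 and 0.000429). Psmb8 had 1.06 and 0.62 in the authors' deposited table, neither past its threshold (adjusted p = 0.0578 and 0.348). How that test drew a spread from 1 library a group is not stated.

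Between titles, no proteasome gene reached 2-fold in either direction. Of all genes, 3.18% were higher and 2.07% lower in KO than in WT untreated, and 3.36% and 4.76% after LPS. Of the proteasome genes, 0 passed in either comparison of titles in the authors' deposited table, where 0.651% of genes were higher and 0.172% lower untreated and 0.634% and 0.961% after LPS. The effect of the title common to both treatments, from the additive fit in edgeR, called 0 of the 49 genes, and 0% of all genes in either direction. At an unadjusted p under 0.05 stood 0 of the 49 and 39 of 13989 genes by edgeR, and 0 and 62 by limma-voom, which called 0 genes after adjustment as well. With 1 residual degree of freedom, this does not show that the titles were alike.

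In 16 of the 18 genes whose KO and WT levels differed beyond counting error both before and after LPS, the direction was turned. Among all tested genes, too, turned directions (14.5% and 13%) were far more common than kept ones (2.65% and 1.95%). In 7 genes the KO level was above the WT level untreated and below it after LPS, each interval excluding 1, which is 14.3% of the 49 where 14.5% of all tested genes did so. They were Psmb6, Psmb8, Psmb9, Psmd8, Psmd10, Psme1 and Psmf1, with Psmb9 at 1.33 and 0.914 and Psmb6 at 1.32 and 0.811. In 9 genes the reverse held (18.4%, against 13% of all), and these were Psma5, Psmb1, Psmb2, Psmd3, Psmd5, Psmd11, Psme2b, Psme3 and Psme4, with Psma5 at 0.799 and 1.32. With both intervals excluding 1, KO was higher in both treatments for Psmb3 and Psme2 (background 2.65%) and lower in both for 0 genes (background 1.95%). In the remaining 31 tested genes at least 1 interval held 1, so no pattern was assigned. The patterns were assigned under TMM scaling only and were not repeated under another scaling. Some intervals ended close to 1, as for Psmb8 after LPS (0.927 to 0.9994). Those of Psmb3 were 1.001 to 1.135 untreated and 1.0015 to 1.145 after LPS. A small change of scaling would move such bounds past 1. Psme2 was 1.10 and 1.11 times the WT level. The shares of both crossing patterns lay near those of all genes. Lyz1 crossed between the titles in the same way as the 7 genes, and Lyz2, the gene that carries Cre, like the 9, at 0.571 times the WT level untreated and 1.84 times after LPS. What either has to do with these values was not tested.

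**Figure D4:**
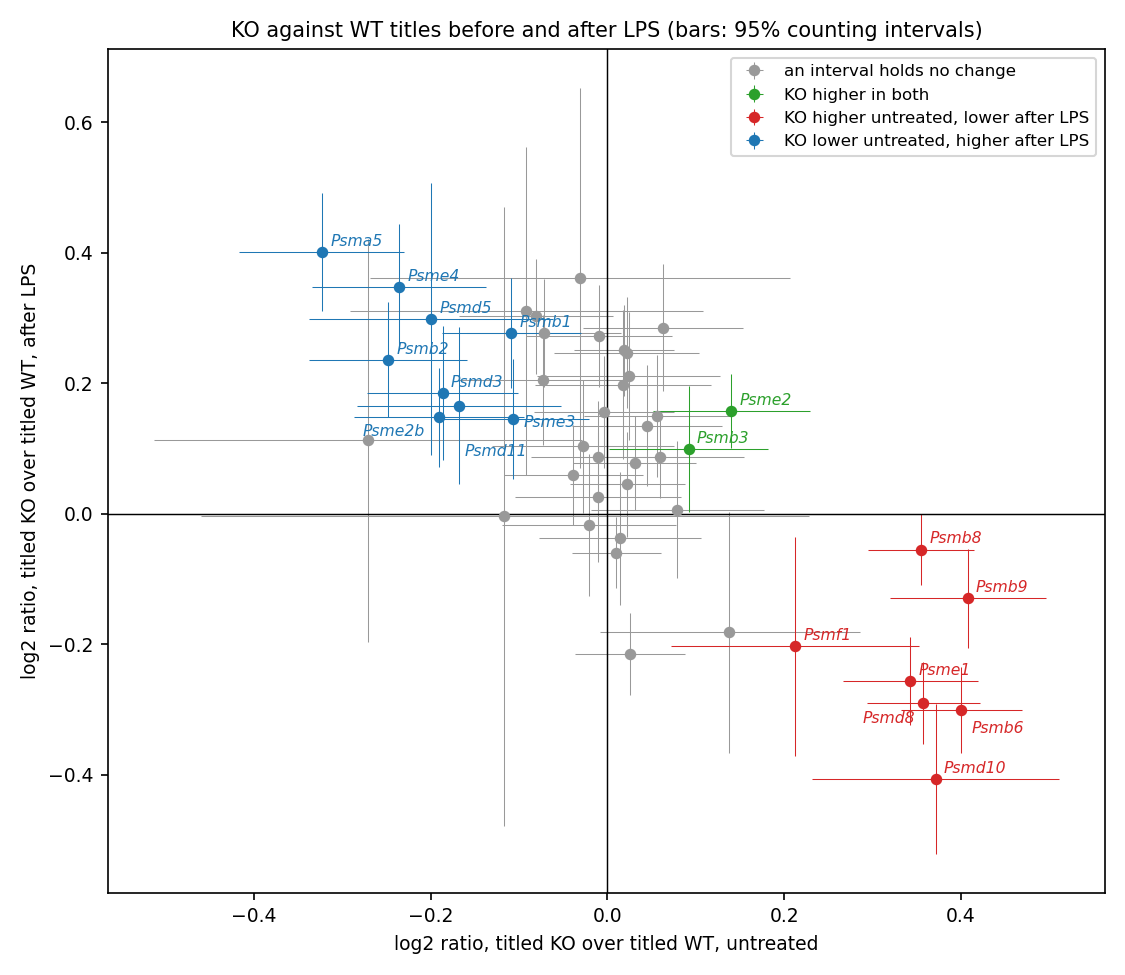
Log2 ratio of the libraries titled KO over WT untreated (horizontal) and after LPS (vertical) for 47 proteasome genes with a mean of at least 5 CPM, with 95% counting intervals as bars. The 7 red genes lie at the lower right and the 9 blue genes at the upper left, and Psmb3 and Psme2 alone have both intervals above 0.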

How the data were processed

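Poly-T-selected RNA of 4 libraries (3 µg each, per the labels' protocols) was aligned by the authors to mm10 with HISAT2 2.0.5, as the submitters' processing notes name it. The deposited table holds read counts per gene, FPKM and gene lengths for each library, and for each of 4 comparisons a log2 fold and a p-value with its adjusted value, per the file headers. The sources used here do not name the program that counted reads, its strand setting or the authors' test. Another 8 per-sample columns were left out.

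Counts were scaled by TMM and tested with edgeR 4.0.16 (quasi-likelihood, filterByExpr, adjusted p under 0.05 over all genes tested). All 49 members with counts passed the filter. The LPS fit had treatment as its only term, so that it does not rest on the titles, and an additive model was an alternative with others in DESeq2 1.42.0 and limma 3.58.1. The ± of an effect is a standard error derived from edgeR's F statistic. Pairs of libraries used a size rule (2-fold, prior count 2, exact 95% binomial interval), and a pseudocount of 1 was used for FPKM. Scripts were tested on simulated data. Groups followed the sample titles. Depth was 17610372 to 23835940 counts, so that 3 counts were 0.108 to 0.184 CPM.

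The proteasome genes and lists were chosen with earlier results of these data known. Named in full were the catalytic pairs, Psme1 to Psme3, members called or past 2-fold, members without counts, up to 4 called genes per pathway list, and Nfe2l1, Irf1, Tap1 and Pomp, apart from items that are not reported here. Symbols were matched to GENCODE M21 by identifier (50 of 50). Promoter windows are from RefSeq, GRCm38.p6, the same build. 9 members overlap another gene of at least 1 CPM (Psma2, Psma3, Psmb7, Psmb9, Psmc3, Psmc3ip, Psmd13, Psme1 and Psme2b), which makes their counts uncertain.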

Additional observations from a re-analysis of the deposited data

Results flagged for a closer look

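In 16 proteasome genes the libraries titled KO and WT differed in opposite directions untreated and after LPS. Both counting intervals excluded equal levels under TMM scaling, the only one used for these patterns. For Psmb8 this was narrow, with an upper bound of 0.9994 after LPS. With 1 library in each group, the difference between treatments was not tested. The KO level was higher untreated and lower after LPS in 7 genes. The ratios of KO to WT were 1.32 untreated and 0.811 after LPS for Psmb6, 1.28 and 0.962 for Psmb8, 1.33 and 0.914 for Psmb9, and 1.27 and 0.837 for Psme1. They were 1.28 and 0.818 for Psmd8, 1.29 and 0.754 for Psmd10, and 1.16 and 0.868 for Psmf1.

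The KO level was lower untreated and higher after LPS in 9 genes. The ratios were 0.799 and 1.32 for Psma5, 0.927 and 1.21 for Psmb1, 0.842 and 1.18 for Psmb2, 0.879 and 1.14 for Psmd3, and 0.871 and 1.23 for Psmd5. They were 0.890 and 1.12 for Psmd11, 0.876 and 1.11 for Psme2b, 0.928 and 1.11 for Psme3, and 0.849 and 1.27 for Psme4. The shares of both patterns lay near those of all genes, so such crossings were not particular to the proteasome genes.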

How the results depend on the processing

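The 16 proteasome genes higher and 0 lower after LPS became 3 and 0 in the additive model (all genes 1308 higher and 719 lower, from 2339 and 2146), 3 and 6 with library totals (all genes 1403 and 5995) and, with no filter on low counts, 1 lower (all genes 3264 lower). With 1 library left out, the side left with 1 library was assumed to vary like the other, and there were 3 to 7 proteasome genes higher, with 1480 to 1701 of all genes higher and 980 to 1235 lower. With library totals, Psmb4, Psmb5 and Psme3 turned to -0.081, -0.18 and -0.18. DESeq2 size factors, DESeq2, limma-voom and FPKM kept the count within 1.5 times. Psmb6 passed under DESeq2 and with no filter.

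In the pairs of libraries, library totals left 2 of 49 genes higher (9.46% of all genes) and 2 lower (33.2%) in the WT titles and 2 higher (9.26%) in the KO titles. A 1.5-fold limit gave 11 higher (23.2% of all genes) and 2 lower (25.3%) in the WT titles and 16 higher (23.6%) in the KO titles. Between titles after LPS it gave 1 higher (8.21%). That gene was Psmc3ip, matched by its letters only, at 1.54 times from 43 counts in WT and 63 in KO. Without division by length, Psmb8 over Psmb5 was 2.06, 2.53, 3.58 and 2.83, Psmb9 over Psmb6 was 0.605, 0.608, 0.716 and 0.807, and Psmb10 over Psmb7 was 1.14, 1.21, 2.71 and 2.68. By principal transcript length, chosen after seeing the data, they were 1.14, 1.40, 1.98 and 1.56, then 0.357, 0.359, 0.423 and 0.476, and 1.01, 1.07, 2.40 and 2.37. In all of these both LPS libraries lay above both untreated ones. Apart from lengths, fewer samples and scaling by construction, the cause was not tested.

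No paired analysis was possible because the labels give no replicate numbers and the 4 groups hold 1 library each; the additive model compares within titles instead. Intervals cover counting error only.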
